A study of Homo sapiens with 6 samples.

Results

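Human tissue kallikreins are secreted serine proteases whose genes lie next to each other on chromosome 19. The data here cover the contiguous members KLK5 to KLK14 in 2 human breast cancer cell lines, pLUM (pure luminal) and pLB (pure luminobasal), both derived from T47Dco, a subline of the hormone receptor-positive line T47D. All gene probes named for one of these members were taken, which gave 13 probes for 10 genes out of 25940 gene names on the array. KLK6 had 2 probes, KLK13 had 3 and each other member had 1. Signals were compared between 3 pLUM and 3 pLB arrays, each hybridized with RNA from a separate sort.

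pLUM had been sorted as CLD3+CD49f- from cells of a T47Dco xenograft grown with estradiol (E), and was treated with 1 nM E for 72 h before profiling. pLB had been sorted as CLD3-CD49f+ from cells of a xenograft grown with E plus progesterone, and was kept under E withdrawal (EWD). By the methods, each is thus a single line from a single tumor. A figure legend of the paper instead shows both fractions sorted from a xenograft of a mouse given E plus progesterone. Line and hormone cannot be told apart on these arrays, nor can tumor of origin if it differed. Before RNA extraction, the cells were stained for CK5 and sorted again, and the labels do not say which CK5 fraction was hybridized. The probe of KRT5, the gene of CK5, was well above background on all 3 pLB arrays and on no pLUM array. The spread between arrays is that between 3 sorts of 1 line.

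Kallikreins are made as inactive precursors and gain activity when another protease, sometimes another kallikrein, removes a short propeptide. In the skin, KLK5 and KLK7 cleave the desmosomal proteins that hold the outermost cells together, and the inhibitor encoded by SPINK5 restrains them. Several kallikreins are also secreted by breast and prostate epithelium, where steroid hormones are known to influence some of them.

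Values are log2 of the background-corrected spot intensity divided by the 75th percentile of its array, so that 0 is the level of that percentile. The scanner software marks a spot as well above background or not, and a probe counted as measured on an array if most of its spots were so marked. Probes measured on at least 3 of the 6 arrays were tested with limma, and a difference was called at 2-fold or more with a Benjamini-Hochberg adjusted p under 0.05 over all 23103 probes tested. On this scale, with each gene taken by its tested probe with the highest mean, the luminal markers ESR1, PGR, GATA3, CLDN3, MUC1, FOXA1 and KRT8 were lower in pLB, KRT18 was not called, and all 8 basal markers, such as KRT5 and TP63, were higher. Another KRT8 probe was called higher in pLB (1.89), and a further KRT8 probe was called lower (-2.57). CLDN3 and ITGA6 encode the proteins by which the lines were sorted (CLD3 and CD49f), and KRT5 encodes CK5. The paper also reports RNA differences between these lines for most of the listed luminal and basal markers. Both lists are thus no independent check of what the lines are. Summed over the list, luminal markers reached 255 to 280 times the 75th percentile on pLUM arrays and 82.5 to 87.1 times on pLB arrays, against 1.07 to 1.31 and 88.2 to 123 times for basal markers. Most of the luminal sum in pLB came from KRT18, with a mean log2 signal of 6.84 in pLUM and 6.23 in pLB. The pLB sum thus says little about the other luminal markers. Of 9 immune, endothelial and fibroblast markers, COL3A1, PDGFRB and PECAM1 were measured on no array, and 1 of the 5 tested (VWF) was higher in pLB. No pLUM array measured VWF, and its call was lost under several alternatives. With signals below the lowest measured one raised to it, VWF differed by 0.85. Another PTPRC probe, dimmer than the one taken for the gene, was called lower in pLB (-1.20). The list summed to 1.12 to 1.17 in pLUM and 0.707 to 1.36 in pLB. In such bulk RNA, fewer cells expressing a gene and less RNA per cell cannot be told apart.

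The members did not differ in 1 direction. KLK6, KLK7 and KLK8 were higher in pLB, by 8.67-fold, 2.05-fold and 5.24-fold, whereas KLK11 was 149-fold lower by a pLB signal that was above background on 1 of 3 arrays. KLK5 and KLK9 were measured but not called, and KLK10, KLK12, KLK13 and KLK14 were too dim to be tested. Of the 13 probes, 6 were tested, 1 for each of 6 genes, compared with 67.7% of all probes on the array. Among those 6, 3 were called higher and 1 lower, where 21.9% of all tested probes were higher and 23.7% lower. The median difference was 0.76 on the log2 scale for the 6 probes and -0.01 for all tested probes. The signals of the 2 lines did not overlap for 5 of the 6, as for 68.1% of all tested probes.

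**Figure D1:**
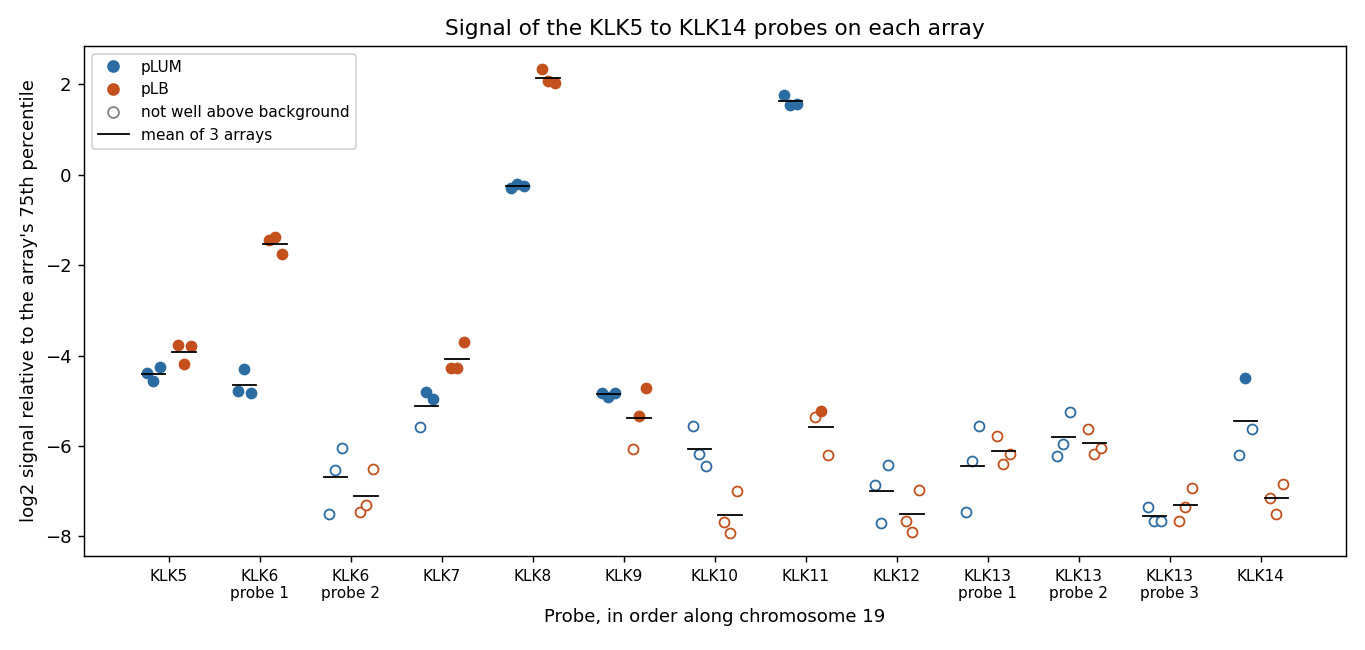
Log2 signal relative to the array's 75th percentile for the 13 probes of KLK5 to KLK14, in order along chromosome 19, with 1 point for each of the 3 pLUM (blue) and 3 pLB (orange) arrays, filled where the probe was well above background, and a line at the mean. KLK6 probe 1, KLK7 and KLK8 are higher in pLB, KLK11 has a mean of 1.63 in pLUM and -5.59 in pLB, and most points of the last probes along the chromosome are open.

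KLK11 (hippostasin), a trypsin-like protease of prostate and brain, had the largest difference among the tested members. In pLUM, the signals of replicates 1, 2 and 3 were 1.77, 1.55 and 1.57, and those in pLB, in the same order, were -5.35, -5.22 and -6.20. It was therefore a clearly measured transcript in every pLUM sample and close to or under the detection limit in every pLB sample. The difference was -7.22 ± 0.28 (log2, SE, n = 3 per line, limma adjusted p = 1.5e-06).

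The KLK11 probe matches chr19:51525626-51525685 (hg19, minus strand). Because the finding rests on this oligonucleotide, its first 30 of 60 bases are shown, 5′ to 3′.

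KLK11: tcctggactacaggagatgctgtcacttaa

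No other member had more than 1 spot per probe, whereas this probe was printed at 10 spots on each array, which gives its measurement a technical check. On the 3 pLUM arrays, the processed intensity of the 10 spots ran from 1520 to 1694, from 1521 to 1706 and from 1562 to 1732. On pLB replicates 1, 2 and 3 it ran from 15.0 to 32.2, from 12.9 to 23.4 and from 3.52 to 11.2. The dimmest pLUM spot was thus 47.2 times as bright as the brightest pLB spot, before any scaling between arrays. In pLB, 4, 8 and 0 of the 10 spots were well above background, so that the probe counted as measured on 1 of the 3 pLB arrays. With signals below the lowest measured one raised to it, the difference was -6.74 on the log2 scale, or 107-fold. With another background correction, normexp with an offset of 50, it was -4.67, or 25.5-fold, so that the size of the difference depends on how dim signals are treated. On the slide that held both lines, pLB replicate 1 lay 6.98 below the mean of the 3 pLUM arrays.

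**Figure D2:**
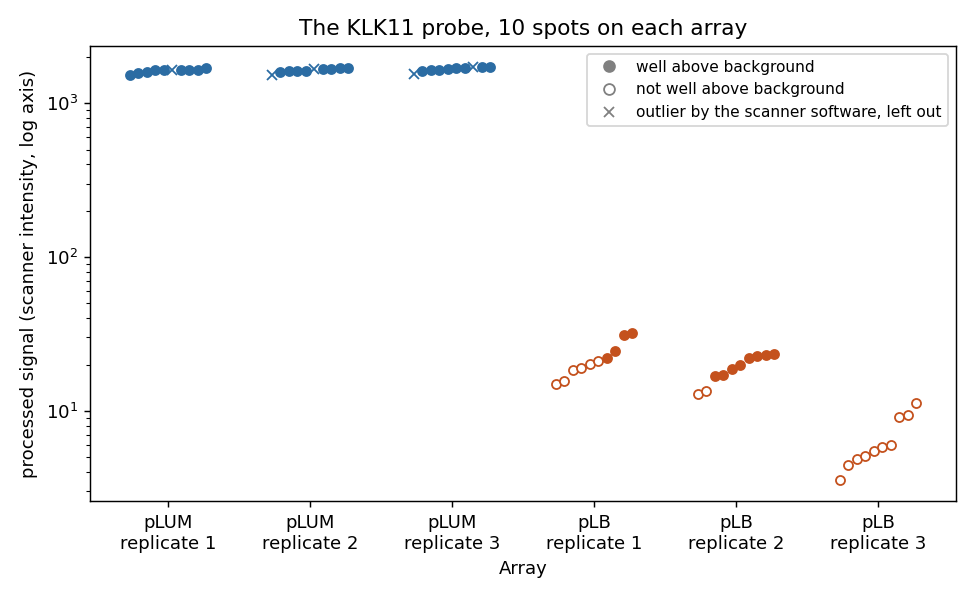
Processed intensity (log axis) of each of the 10 KLK11 spots on the 3 pLUM and 3 pLB arrays, with filled points for spots well above background, open points for spots that were not, and crosses for spots that the scanner software called outliers. No pLUM spot is dimmer than 1520, and no pLB spot is brighter than 32.2.

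KLK5, a trypsin-like protease that can activate other skin kallikreins, was measured on all 6 arrays at a low level. Its signal was -4.39, -4.57 and -4.25 in pLUM and -3.78, -4.18 and -3.80 in pLB. The pLB arrays were all above the pLUM arrays, but the difference of 0.49 ± 0.19 (log2, SE, n = 3 per line, limma adjusted p = 0.0547) was not called.

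KLK7, the chymotrypsin-like partner of KLK5 in shedding of skin cells, gave -5.58, -4.80 and -4.96 in pLUM and -4.27, -4.27 and -3.70 in pLB. It was not well above background on pLUM replicate 1 but was so on the other 5 arrays. The difference was 1.04 ± 0.27 (log2, SE, n = 3 per line, limma adjusted p = 0.0117), just past the 2-fold threshold. The KLK7 call was lost without pLUM replicate 1 (0.81), without pLB replicate 3 (0.85) and with slide as a block (0.85, limma adjusted p = 0.103). Under the normexp correction, the KLK7 difference was -0.24 (limma adjusted p = 0.600) and that of KLK5 was -0.29.

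KLK8 (neuropsin), a trypsin-like protease known from neuronal plasticity and from the epidermis, was well above background on all 6 arrays. Its signal was -0.28, -0.20 and -0.26 in pLUM and 2.34, 2.07 and 2.02 in pLB. The 3 arrays of each line lay close together (SD of 0.04 in pLUM and 0.17 in pLB), and the difference between the lines was 2.39 ± 0.16 (log2, SE, n = 3 per line, limma adjusted p = 1.89e-05). KLK8 and KLK11 were both well above background on all pLUM arrays and differed between the lines in opposite directions.

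The KLK8 probe lies at chr19:51499316-51499375 (hg19, minus strand), and its sequence is shown because it reported a transcript that both lines expressed and that differed with little spread.

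KLK8: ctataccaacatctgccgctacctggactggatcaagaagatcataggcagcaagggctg

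KLK6 (neurosin), which was cloned from breast cancer as protease M and is abundant in the central nervous system, differed most among the members that were higher in pLB. The probe at chr19:51461888-51461947 gave -4.78, -4.30 and -4.83 in pLUM and -1.45, -1.38 and -1.75 in pLB. All 6 signals were well above background, and the lowest pLB array was far above the highest pLUM array. The difference was 3.12 ± 0.21 (log2, SE, n = 3 per line, limma adjusted p = 1.77e-05). It remained past the threshold under the normexp correction, where it was 1.21.

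A second KLK6 probe, at chr19:51466725-51466784, was designed to the same transcript but nearer to its start, from base 478 as against base 1467. It was well above background on no array, at -7.51, -6.53 and -6.04 in pLUM and -7.47, -7.31 and -6.52 in pLB. The KLK6 call therefore rests on 1 of its 2 probes. Both probe sequences are shown, since they report differently on the same gene; of the brighter probe, the first 30 bases are given.

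KLK6 brighter probe: gacatacatggaatagcacctgggccacca

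KLK6 dimmer probe: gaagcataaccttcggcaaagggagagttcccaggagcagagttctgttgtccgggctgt

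KLK9, the member next to KLK8, gave -4.83, -4.92 and -4.82 in pLUM and -6.08, -5.33 and -4.72 in pLB. The pLUM arrays were close together, whereas the pLB arrays were spread on both sides of them and replicate 1 was not well above background. The difference of -0.52 ± 0.33 (log2, SE, n = 3 per line, limma adjusted p = 0.204) was not called. With slide as a block, where pLB replicate 1 alone is set against the 3 pLUM arrays of its slide, KLK9 was called lower (-1.22, limma adjusted p = 0.0127).

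The remaining 4 members had a measured signal on at most 1 array. KLK14, an efficient trypsin-like activator of other kallikreins, was well above background on pLUM replicate 2 alone, at -4.50. The other KLK14 values were -6.20 and -5.63 in pLUM and -7.14, -7.50 and -6.84 in pLB. KLK10, which is known as a gene silenced in many breast cancer lines, was well above background on no array, at -5.56, -6.18 and -6.44 in pLUM and -7.68, -7.92 and -7.00 in pLB. KLK12 was well above background on no array and ranged from -7.91 to -6.41. None of the 3 KLK13 probes was well above background on any array, and 1 of these spans 399 bases of the genome, so that it bridges an intron. These dim signals give no level for either line. For comparison, 25% of all gene probes were well above background on no array, as were 6 of the 13 kallikrein probes.

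Along the chromosome, the probes span 134447 bases, from KLK5 at chr19:51446866 to KLK14 at chr19:51581312 (hg19), and all lie on the minus strand. The genes called higher in pLB, KLK6, KLK7 and KLK8, were consecutive. This run depends on KLK7, whose call was lost under several alternatives and whose difference was -0.24 under the normexp correction. The KLK8 and KLK11 probes, which differed in opposite directions, are 26250 bases apart with KLK9 and KLK10 between them. The longest exact run that any of the 13 probes shared with a probe of another kallikrein was 9 bases, and for the tested members the longest run shared with a probe of any other gene was 16 bases, in KLK8.

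**Figure D3:**
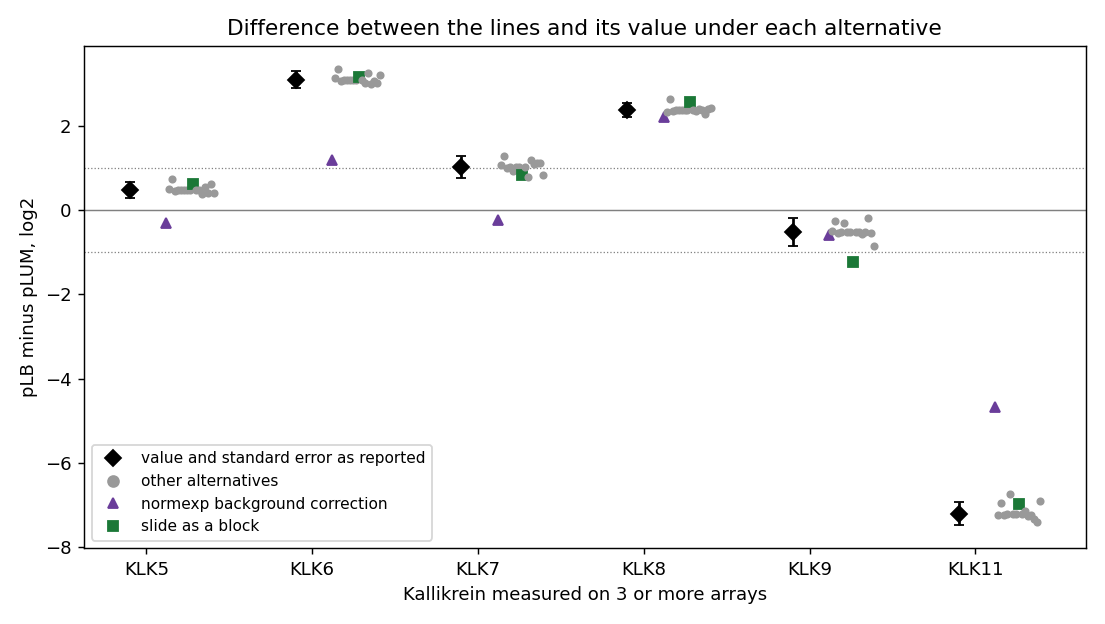
Difference between pLB and pLUM (log2) of the 6 tested kallikreins, as reported with its standard error (black diamonds) and under each alternative processing (grey points, with normexp background correction as triangles and slide as a block as squares); dotted lines mark 2-fold. KLK6 and KLK8 stay above the upper line and KLK11 below the lower one, whereas KLK7 lies on both sides of 0.

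The genes on either side of the cluster did not differ in 1 direction. Of the 10 nearest genes on each side that are not kallikreins, 11 were tested, of which 3 were higher, 2 lower and 6 not called, with a median difference of -0.01. C19orf48, at 0.97 (limma adjusted p = 0.00181), lay just under 2-fold and was called higher under the normexp correction (1.02), with spike-in scaling (1.23) and without pLUM replicate 1 (1.04) or 2 (1.01). Over all 17668 genes tested, each by its probe with the highest mean, 22.7% were higher and 23% lower, and the median was 0.04. On the KLK5 side, SYT3, a synaptotagmin, was 7.55-fold higher in pLB and CLEC11A, a secreted growth factor, was 3.68-fold lower. On the KLK14 side, ETFB, a mitochondrial electron carrier, was 2.82-fold higher, and CLDND2 was at least 6.50-fold lower by the processed signals, since no pLB array measured it. CTU1, the nearest gene to KLK14, was 2.65-fold higher by its brighter probe and 2.37-fold lower by its other probe. Under the normexp correction, SYT3 was 2.63-fold higher and CLDND2 was 2.62-fold lower. The immune receptor genes SIGLEC7, SIGLEC9 and CD33 were not tested.

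Promoter windows from 250 bases before to 50 after the transcription start were read from RefSeq (GRCh38.p14), where 16 windows of 9 of the members were found and none of KLK8. None held the TATA box (TATAAA) on either strand, which was in 11.5% of all 35116 windows. None held the AP-1 motif searched with any base in its middle (TGANTCA), a pattern that was in 7.71% of windows. Nor did any hold the full palindromic estrogen response element, which was in 0.0570%. These matches describe letters in the windows and were not otherwise tested.

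Other genes of the pathway were grouped as the remaining kallikreins, inhibitors, activating proteases and substrates. Of the 46 genes in these lists, 27 were tested, 11 were higher in pLB, 6 were lower and 10 were not called, with a median difference of 0.33. Over all genes tested, 22.7% were higher and 23% lower, with a median of 0.04. These shares also stand beside the counts of each list below. Under the normexp correction, 7 of the listed genes were higher, as DSC1, KLK1, PI3 and SPINK5 were no longer called, and TMPRSS2 was no longer called lower. The same correction gave smaller folds for genes with a dim line, of 103 for PLAU, 28.7 for F2RL1, 7.19 for HPN, 5.56 for SLPI and 3.16 for SERPINA3, all still called.

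Of the other kallikreins, KLK1, the enzyme that releases kinin from kininogen, was 3.44-fold higher in pLB (1.78 ± 0.22, log2, SE, n = 3 per line, limma adjusted p = 0.000332). Its signal was -2.86, -2.48 and -2.72 in pLUM and -0.94, -1.21 and -0.55 in pLB, so that the lines did not overlap. KLK2 and KLK3 (prostate-specific antigen), which are known as androgen-regulated, were dim and not called, at -0.80 ± 0.34 and -1.20 ± 0.67. KLK2 was called lower without pLB replicate 3 (-1.13), and KLK3 was called lower with slide as a block (-2.91). KLK4, KLK15 and the pseudogene KLKP1 were not tested.

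Of 13 inhibitors, 7 were tested, with 3 higher, 2 lower and 2 not called. SLPI, a secreted inhibitor of leukocyte proteases, was 15.7-fold higher in pLB, from -3.90, -3.74 and -3.79 in pLUM to 0.48, 0.45 and -0.45 in pLB. SPINK5, which encodes the inhibitor of KLK5 and KLK7, was 4.51-fold higher by 1 probe, at -5.17, -4.60 and -5.14 in pLUM and -2.68, -2.97 and -2.74 in pLB, while a dimmer probe differed by 0.40 ± 0.30 and was not called. PI3 (elafin) was 2.52-fold higher, with signals from -5.99 to -4.49 in pLUM and from -3.96 to -3.75 in pLB. In contrast, SERPINA3 was 5.27-fold lower and SERPINB6 was 3.23-fold lower, and the other tested probes of each were also lower. The Kunitz inhibitors SPINT1 and SPINT2, which act on cell-surface proteases, were not called. The PI3 call was lost with slide as a block and without pLUM replicate 3, where the difference was 0.94.

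Of 11 activating proteases, 6 were tested. PLAU (urokinase) was 234-fold higher in pLB, from -3.06, -3.15 and -2.91 in pLUM to 4.94, 5.03 and 4.50 in pLB. CTSL1, now named CTSL, was 9.41-fold higher by its brighter probe and 2.56-fold lower by another, so that its direction depends on the probe. HPN (hepsin) was 21.9-fold lower, from 0.19, 0.12 and 0.10 in pLUM to -3.99, -4.21 and -4.75 in pLB, and TMPRSS2 was 3.32-fold lower. Both are membrane-bound serine proteases. ST14 (matriptase) and PRSS8 (prostasin), which act together at the epithelial surface, were not called at 0.79 ± 0.27 and 0.33 ± 0.17. ST14 was called higher with slide as a block (1.13) and without pLB replicate 3 (1.07).

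Of 16 substrates, 11 were tested, with 5 higher, 2 lower and 4 not called. Of the tested receptors that proteases activate by cleavage, some were called higher and none lower. F2RL1 (PAR2) was 64.1-fold higher in pLB, from -3.21, -3.35 and -2.71 in pLUM to 2.93, 2.94 and 2.86 in pLB. F2R (PAR1) was called higher, from -3.82, -5.93 and -5.71 in pLUM, where only replicate 1 was well above background, to -1.13, -0.97 and -1.02 in pLB. The F2R difference was 4.11 ± 0.52 (log2, SE), 4.78 without pLUM replicate 1 and 1.70 under the normexp correction. F2RL3 (PAR4) was not called, and F2RL2 was not tested. IGFBP3, a carrier of insulin-like growth factors, was at least 164-fold higher by the processed signals, as no pLUM array measured it, and 26.7-fold higher under the normexp correction.

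Among the skin adhesion proteins cleaved by KLK5 and KLK7, CDSN (corneodesmosin) was 115-fold lower in pLB, from 1.46, 1.39 and 0.82 in pLUM to -5.95, -5.51 and -5.42 in pLB, of which 1 was well above background. With dim signals raised to the lowest measured one, CDSN was 87.4-fold lower, and under the normexp correction 19.3-fold. DSC1 was called higher, at 1.95 ± 0.44 (log2, SE), but only 1 of 3 pLUM arrays measured it, and it was 0.14 under the normexp correction. DSG1 was not tested. CAMP, the cathelicidin precursor that KLK5 and KLK7 process in skin, was at least 6.01-fold lower by the processed signals and 3.24-fold lower under the normexp correction. LAMA3, a laminin chain, was 3.17-fold higher by its brighter probe, while a dimmer probe differed by 0.74 ± 0.19 (log2, SE) and was not called. CDH1, COL4A1 and FLG were not called. COL4A1 was called lower with slide as a block (-1.16).

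**Figure D4:**
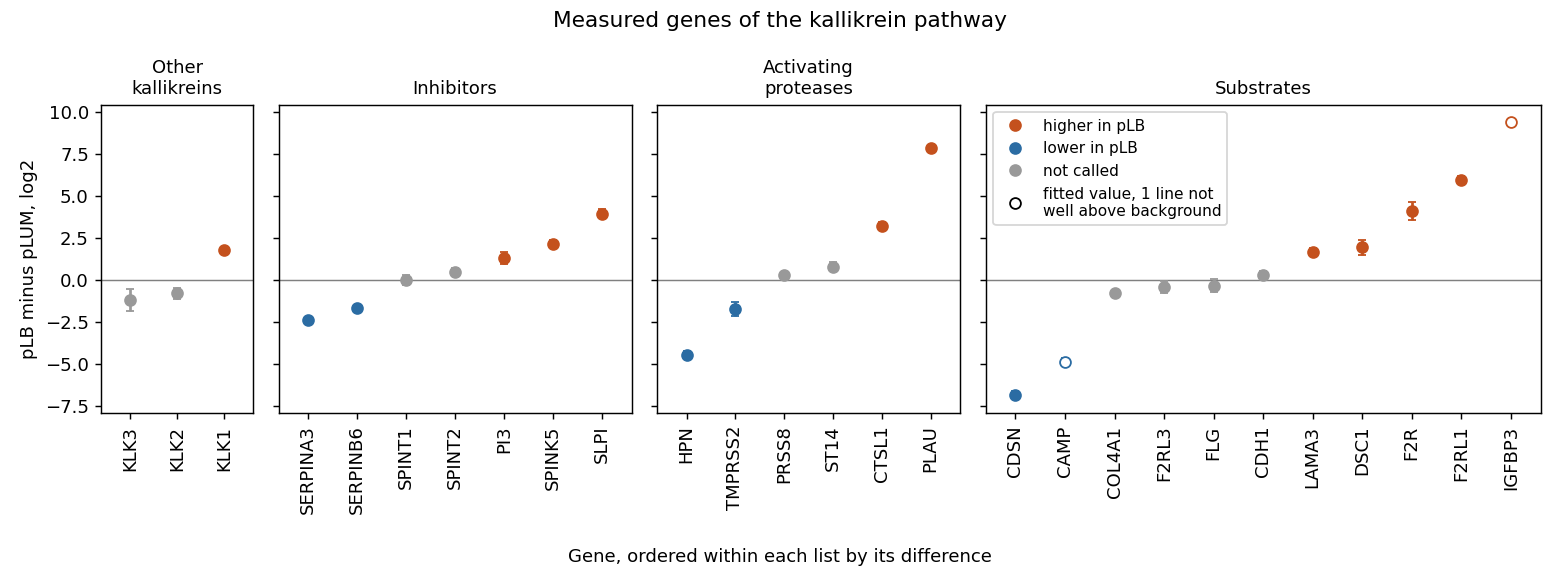
Difference between pLB and pLUM (log2, bars are standard errors) of the 27 tested genes of the pathway lists, coloured by call, each by its tested probe with the highest mean. Open points are fitted values of genes that 1 line's arrays did not measure, for which the text gives lower bounds by the processed signals and smaller normexp folds. Each list holds points on both sides of 0, from CDSN at -6.85 to IGFBP3 at 9.41.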

How the data were processed

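RNA from 3 sorts of pLUM and 3 of pLB was hybridized to 1-colour Agilent arrays. The authors deposited each array's Agilent Feature Extraction 10.10.1.1 output, with an intensity per spot that was corrected for background but not normalized between arrays. The submitters' processing notes also name Partek. Positions and gene names are those of the files (hg19).

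Here, spots flagged as outliers (296 to 387 on an array) and controls were dropped, spots of a probe were averaged, and log2 values were set relative to the array's 75th percentile (intensities of 449 to 869). Between 21280 and 22772 probes per array were well above background. Tests used lmFit and eBayes of limma 3.58.1 (R 4.3.3) and were tested on simulated data. Where a line had no array well above background, folds were computed with its signals raised to the lowest measured one. They are lower bounds by the processed signals only, as that signal is not a detection limit. The normexp correction gave smaller folds for CAMP, CLDND2 and IGFBP3. Genes that could be named were the members, the listed pathway genes and the 10 nearest genes on each side. Members and lists were chosen with earlier results of these data known. With 3 arrays per line, the smallest two-sided p of an exact permutation test is 0.1. pLUM arrays and pLB replicate 1 shared slide 1, and pLB replicates 2 and 3 shared slide 2. Alternatives covered background correction, scaling, filters, thresholds, test, slide and replicate blocks, and leaving out each array.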

Additional observations from a re-analysis of the deposited data

How the results depend on the processing

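KLK6, KLK8 and KLK11 kept their direction and call in all alternatives in which they were tested, from 1.21 to 3.37, from 2.23 to 2.65 and from -7.41 to -4.67 on the log2 scale. When a probe had to be measured on all 6 arrays, KLK7, KLK9 and KLK11 were not tested, so that 0 members were lower, and 6 pathway genes were higher, 3 pathway genes lower and 1 flanking gene lower. With no filter on dim probes, 3 members were lower, KLK11 and the dim KLK10 and KLK14, whose signals give no level. With slide as a block, 2 members were lower, KLK9 and KLK11. The normexp correction gave 7 pathway genes higher. It changed the sign of KLK7 (-0.24), PI3 (-0.065) and VWF (-0.25), none of which was then called in either direction. It gave 3004 probes higher, against 5054, and moved the median of all probes to -0.26. Scaling on spike-in controls moved that median to 0.25 and the share of higher among all calls from 48.0% to 58.6%, and changed no call of a member. With dim signals raised to the lowest measured one, KLK7 was 0.93 and no longer called. A Student's t-test in place of limma, with the same adjustment of p-values, no longer called PI3 and TMPRSS2. Leaving out 1 array gave KLK7 values from 0.81 to 1.19, 2 or 3 members higher and 1 lower.

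The labels do not say whether same-numbered arrays of the 2 lines were paired. Deviations of same-numbered arrays from their line means correlated at -0.27, -0.095 and -0.22. These values cannot decide the pairing, as the deviations within each line sum to 0 over only 3 arrays. With the replicate block, 3 members were higher and 1 lower, as without it, and 4986 probes were higher and 5383 lower. The mean of a gene's tested probes was the same as the representative probe, as each member had 1 tested probe. The 3 arrays per line and signals near background limit KLK5, KLK7 and KLK9.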
